A study of Mus musculus with 6 samples.

Results

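The comparison described here sets mouse T follicular helper (Tfh) cells that lack Stat6 against Tfh cells with intact Stat6. Its members are all 6 libraries of the series, 3 from Stat6 knockout (KO) and 3 from Stat6 wild-type (WT) mice, and each KO library is paired with the WT library of the same sorted population. The populations carry the names Tfh21, Tfh214 and Tfh4, with gates that the sources used here do not give. There was 1 library per genotype and population. All mice were C57BL/6 and untreated, each genotype was a pool of 10 mice, and 50000 sorted cells went into each library. Accessible chromatin was read by ATAC-seq, in which a transposase inserts adaptors into open DNA. The sources used here do not give tissue, age, sex, immunisation or the type of Stat6 allele. Each genotype being 1 pool of mice, the effects of genotype, pool and library preparation cannot be told apart. A p-value here measures no spread over animals. Those of limma rest on the spread over populations, moderated by a variance shared over all features tested, since each feature has 2 residual degrees of freedom.

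STAT6 is the transcription factor that the IL-4 and IL-13 receptors activate through Janus kinases. It binds DNA as a dimer at a palindrome of TTC and GAA separated by a short spacer, and it directs much of the Th2 program. Tfh cells help B cells in germinal centres, depend on the repressor BCL6, and secrete IL-21 and IL-4, so that they both make the STAT6-activating cytokine and carry its receptor.

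The following promoters are printed to show what was searched for. Zfp708 and Emp1 are start sites with a higher share of reads in KO in every population, Fos is one with a lower share, and Cish, a feedback inhibitor of cytokine receptors, is a textbook target of STAT factors. They were chosen after their values were seen. The sequences are RefSeq promoters on GRCm38.p6, from 250 bases before to 50 bases after a start site, and capitals mark TTC and GAA with any 4 bases between them (the STAT6-type spacing) or with any 3 (TTCNNNGAA, the spacing shared by other STAT factors). Both motifs read the same on both strands, and the search allowed overlaps. More than 1 RefSeq start site is given for Zfp708 and for Emp1. Which of them lies under the peak was not determined, because the deposited coordinates are on mm9. On the minus strand, peaks of Zfp708 extend upstream (to 67189031, mm9) of its start-site peak (67181702 to 67182741). The window printed for Zfp708 is the more upstream one, so it may not be the one under the peak.
Zfp708 (chr13:67097927-67098226, minus strand): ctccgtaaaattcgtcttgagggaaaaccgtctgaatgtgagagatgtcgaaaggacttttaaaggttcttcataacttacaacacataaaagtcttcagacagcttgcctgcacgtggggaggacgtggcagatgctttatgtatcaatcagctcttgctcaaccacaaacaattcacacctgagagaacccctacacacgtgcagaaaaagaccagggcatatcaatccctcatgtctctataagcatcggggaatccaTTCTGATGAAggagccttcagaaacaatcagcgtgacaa
Emp1 (chr6:135362681-135362980, plus strand): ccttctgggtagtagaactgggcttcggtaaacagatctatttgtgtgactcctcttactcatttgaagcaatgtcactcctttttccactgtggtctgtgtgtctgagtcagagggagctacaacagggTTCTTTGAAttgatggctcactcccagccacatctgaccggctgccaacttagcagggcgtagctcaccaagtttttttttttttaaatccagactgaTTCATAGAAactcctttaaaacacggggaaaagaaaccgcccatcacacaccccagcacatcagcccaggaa
Cish (chr9:107296409-107296708, plus strand): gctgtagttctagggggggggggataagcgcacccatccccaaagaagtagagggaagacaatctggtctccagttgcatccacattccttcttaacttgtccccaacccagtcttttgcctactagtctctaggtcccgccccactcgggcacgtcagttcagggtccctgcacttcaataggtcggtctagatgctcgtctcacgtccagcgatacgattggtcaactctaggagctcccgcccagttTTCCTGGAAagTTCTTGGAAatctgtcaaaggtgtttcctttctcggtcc
Fos (chr12:85473640-85473939, plus strand): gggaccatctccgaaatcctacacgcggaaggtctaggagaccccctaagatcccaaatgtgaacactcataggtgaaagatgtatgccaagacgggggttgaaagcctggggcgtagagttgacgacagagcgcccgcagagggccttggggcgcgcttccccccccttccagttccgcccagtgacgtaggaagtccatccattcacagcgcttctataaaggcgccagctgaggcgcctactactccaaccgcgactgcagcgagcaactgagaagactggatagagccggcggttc
The Zfp708 window holds 1 motif of the STAT6-type spacing, the Emp1 and Cish windows hold 2 each of the shorter spacing, and the Fos window holds none. The other RefSeq window of Emp1 holds none, and that of Zfp708 holds 1 of the shorter spacing only. Such a match is a description of letters, not a binding site.

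The libraries held 798555 to 1373218 reads in 282898 listed peaks. Levels are given in CPM, each library scaled to its own total of reads in the listed peaks, and the 8986 peaks with 20 or more reads on average entered the fit. Start sites of pan-T cell genes stood at a median of 26.2 to 40.6 CPM per kb over the libraries, and those of Tfh identity genes, among them Cxcr5, Pdcd1 and Bcl6, at 27.6 to 43.5. Start sites of B cell genes stood at 11.96 to 18.8 CPM per kb, where only 6 of 16 listed genes had such a peak and Ms4a1, Cd79a, Cd79b and Pax5, among others, had none. Myeloid genes (7 of 16 with a peak) stood at 3.61 to 9.50 and CD8 and NK genes (5 of 13) at 2.65 to 9.35. Erythroid and platelet genes (7 of 12) stood at 3.91 to 13.3. Of these lists, the B cell genes differed by genotype without overlap, with a summed level of 37.4 to 37.9 CPM in the WT libraries and 31.3 to 32.3 CPM in KO. Those sums rest on few reads, from 0 (Spib, KO Tfh4) to 23 (H2-Ab1, WT Tfh4) per gene and library. Fcer2a did not share the direction, with 1 to 2 reads in WT and 2 to 5 in KO. H2-Aa held 5 reads in each WT library and 6, 4 and 4 in KO Tfh21, Tfh214 and Tfh4. Cr2 held 5 reads in WT Tfh4 and 7 in KO Tfh4. In CPM, Cd74 alone of the genes with a peak was lower in KO in each population. The difference was not tested against counting error, nor was the part of B cell genes in the results below. In bulk libraries fewer cells of a type and less accessibility per cell cannot be told apart.

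At Stat6 itself the 6 listed peaks gave a log2 difference of 0.21 ± 0.14 (SE) with median-of-ratios scaling (limma adjusted p = 0.714), and all 6 libraries had reads there. In the order Tfh21, Tfh214, Tfh4, which is used throughout, the start-site peak held 18, 26 and 24 WT reads and 23, 25 and 28 KO reads. The part of the gene that the allele lacks is unknown here, so these peaks check no label. Of the 78 tested peaks within 10 Mb of it, 0 were called with library-total scaling, where 0.857% of all tested peaks were, and their median log2 difference was 0.05 with median-of-ratios scaling.

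As a class, strong peaks took a larger share of the reads in KO and weak peaks a smaller one. Peaks with a mean under 5 reads took 53.6%, 53.4% and 59.8% of the WT reads and 46.0%, 49.4% and 55.1% of the KO reads, a KO to WT ratio of 0.857, 0.925 and 0.922. Peaks with a mean of 20 to 40 reads stood at 1.19, 1.097 and 1.12 times their WT share, and those with 80 or more at 1.17, 1.18 and 1.14 times. All 3 populations thus moved the same way at both ends of the range. The share of reads at start sites was higher in KO by 4.88, 3.92 and 2.03 percentage points in Tfh21, Tfh214 and Tfh4, a mean of 3.61 ± 1.45 (SD, n = 3 pairs; exact sign-flip permutation test, two-sided p = 0.25, the smallest that 3 pairs allow). The mean share in intergenic peaks fell by 2.15 points and that in introns by 0.965, each lower in all 3 populations.

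Strength and section moved together. Where the mean was 20 reads or more, intergenic peaks did not fall in KO: their share of the reads was higher by 0.740, 0.276 and 0.582 points. Over all peaks outside start sites, those under 2 reads stood at 0.825, 0.911 and 0.902 of WT. Those of 20 to 40 reads stood at 1.24, 1.06 and 1.23 times WT. Start-site peaks under 2 reads gave no common direction, at 0.932, 1.07 and 0.811. Tfh214 differed from the other populations in the middle of the range, where its peaks outside start sites with 10 to 20 reads stood at 1.01 and those of Tfh21 and Tfh4 at 1.255 and 1.23. That difference rests on 1 pair of libraries per population and was not tested.

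**Figure D1:**
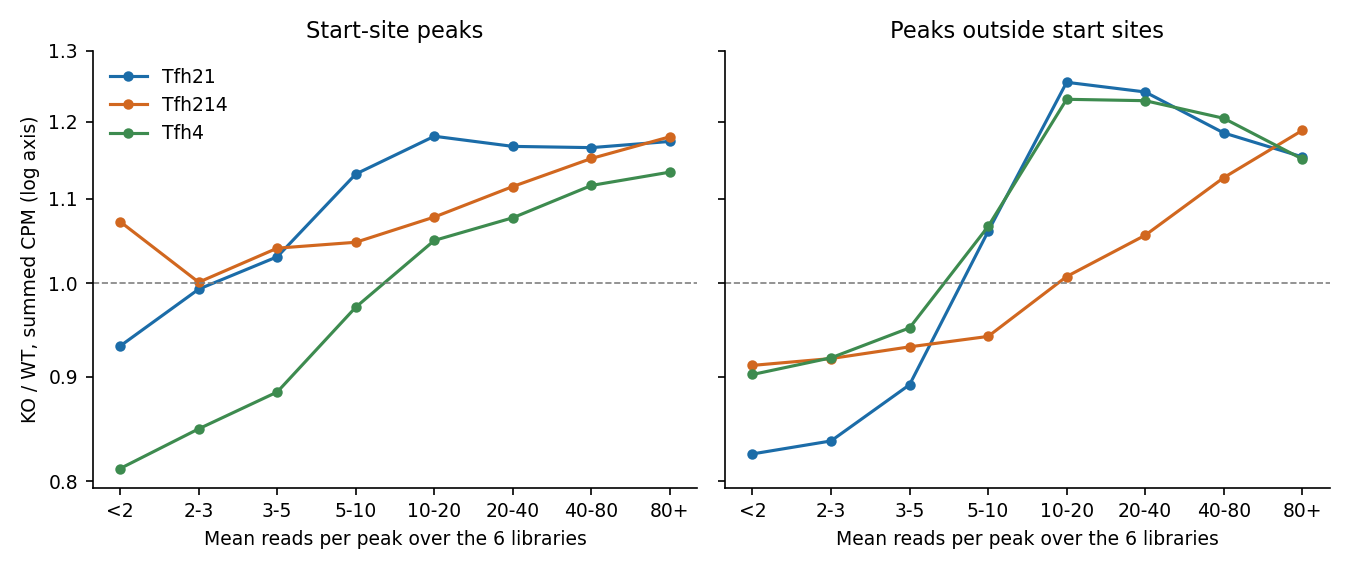
KO to WT ratio of summed CPM (log axis) against the mean reads per peak, for start-site peaks (left) and all other peaks (right), with 1 line per population. Outside start sites, peaks under 5 reads lie below 1 and peaks of 20 or more reads above 1 in all 3 populations.

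With scaling to the library total, the genotype effect passed the test (limma, Benjamini-Hochberg adjusted p under 0.05) at 77 peaks, 0.857% of those tested, each with a higher level in KO. Their log2 differences ran from 0.34 to 0.94 with a median of 0.49, where all tested peaks had a median of 0.19. They spread over sections much as the tested peaks did, with 61 of 6821 at start sites (0.894%), 6 of 540 in introns (1.11%) and 8 of 1126 between genes (0.710%). The call rate rose with strength, from 15 of 5268 peaks with 20 to 40 reads to 23 of 385 with 80 or more. Chromosome 3, named because it held the most, had 12 of the 77 (2.64% of 455 tested). Among them were the start sites of St7l, Depdc1a and Mcl1, an antiapoptotic BCL2 relative. The rate was similar on chromosome 14 (8 of 314, 2.55%) and chromosome 16 (7 of 326, 2.15%). At 56 of the 77 every KO library lay above every WT library, as it did at 13.4% of all tested peaks, and at 76 KO was higher in each population, as at 41.5% of all. The 77 were called on these same values, so these counts only describe them. The exception was Sh3kbp1, an adaptor of receptor internalisation, whose peak in a 5' UTR exon held 22.3, 33.8 and 23.3 CPM in WT and 52.3, 32.6 and 41.98 CPM in KO. Without the variance trend 0 of 8986 were called (1405 at an unadjusted p under 0.05), without the Tfh21 libraries 2, and without the population block 2.

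Median-of-ratios scaling divides each library by its typical strong peak, and it took away the common shift: the median log2 difference of the tested peaks was then 0.00. Under it 2 peaks were called, 0.0223% of those tested, both higher in KO and both among the 77. Of the 77, 67 were still higher in KO in all 3 populations after this scaling, with a median log2 difference of 0.30. Medians by section stayed close to 0, at -0.01 for start sites, 0.03 for intergenic peaks, 0.05 for introns and, highest, 0.08 for the 44 peaks in 3' UTR exons (0.11, 0.01 and 0.13 by population). The intron median came from 0.08, -0.09 and 0.17 in Tfh21, Tfh214 and Tfh4, so the populations did not share a direction. Start-site peaks with 80 or more reads had a median of 0.03, and those of 20 to 40 reads -0.03.

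The first of these 2 peaks lay at the start site of Slc25a37 (chromosome 14, 69902314 to 69903372, mm9), which encodes mitoferrin, the carrier that brings iron into mitochondria. Its reads numbered 63, 68 and 58 in the WT libraries against 90, 89 and 88 in the KO libraries, although the KO libraries were shallower in each population. No KO library overlapped the WT range, and in CPM every KO library lay above every WT library at 13.4% of all tested peaks. The log2 difference was 0.61 ± 0.12 (SE) with median-of-ratios scaling (limma adjusted p = 0.00228). Without the Tfh21 libraries the call was lost (0.73, limma adjusted p = 0.121), as it was without those of Tfh214 (0.47, limma adjusted p = 0.259). The gene's 15 other peaks, none of them part of that call, summed to 27, 29 and 51 reads in WT and 47, 42 and 59 in KO. Their KO to WT ratios were 1.86 (exact binomial 95% interval 1.13 to 3.10), 2.31 (1.40 to 3.84) and 1.28 (0.867 to 1.90), and 13 of the 15 were higher in KO when populations were pooled. Such intervals cover counting error only.

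The second was an intergenic peak on chromosome 12 (16538894 to 16539728), 56.7 kb from the start-site peak of Lpin1, the gene of a phosphatidate phosphatase of lipid synthesis. It held 26, 30 and 30 reads in WT and 43, 44 and 48 in KO, again with no overlap. Its log2 difference was 0.74 ± 0.17 (limma adjusted p = 0.0464), and the call was lost when any 1 population was left out (adjusted p from 0.104 to 0.9995). The 12 peaks assigned to Lpin1 summed to 34, 37 and 47 reads in WT and 55, 32 and 67 in KO, at ratios of 1.73 (1.11 to 2.73), 1.38 (0.831 to 2.27) and 1.58 (1.07 to 2.35). The Lpin1 start site did not share this, with 15, 14 and 12 reads in WT against 11, 7 and 10 in KO.

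**Figure D2:**
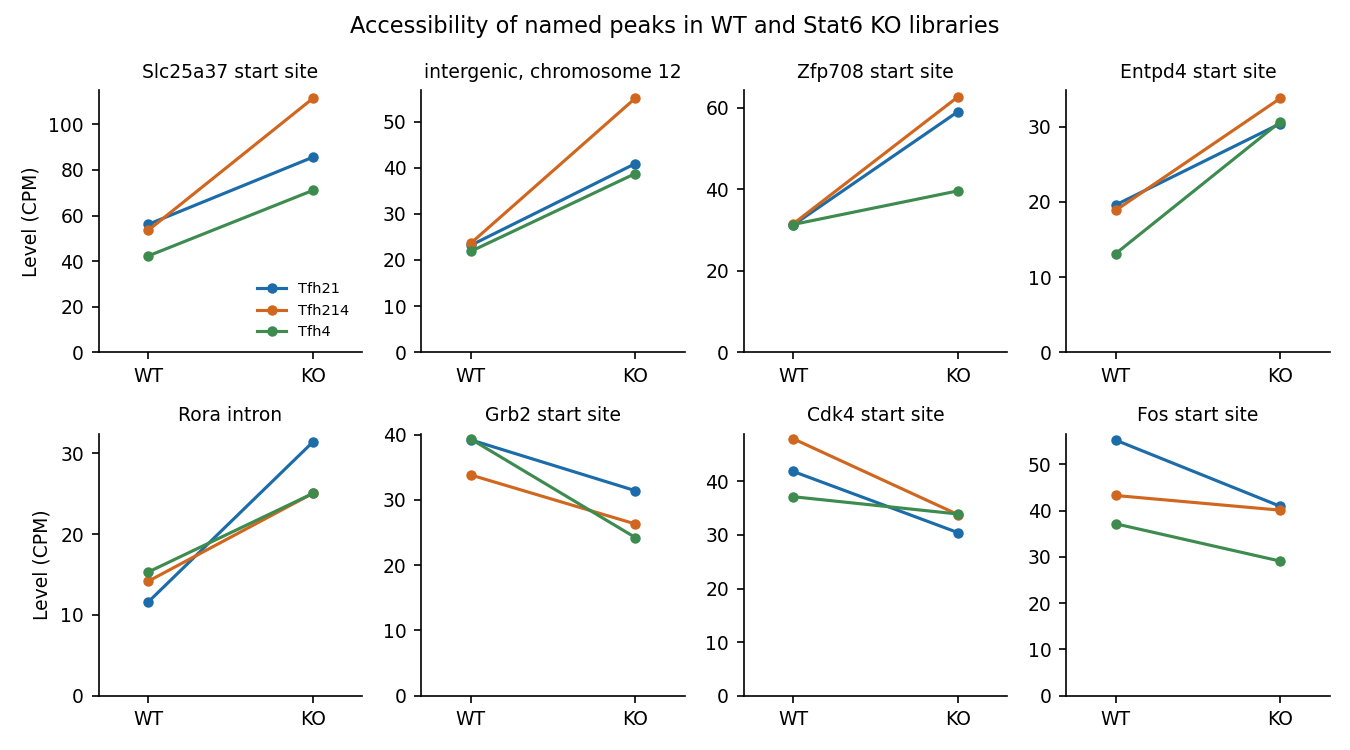
CPM of 8 peaks in WT and KO, with 1 line per population, no error bars because each point is 1 library, and axes that start at 0. The Slc25a37, chromosome 12, Zfp708, Entpd4 and Rora peaks were higher in KO in each population, and the Grb2, Cdk4 and Fos peaks lower.

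Agreement over the populations was limited, and after median-of-ratios scaling the share of peaks with a common direction was close to that of 3 unrelated directions. With library-total scaling 3730 peaks (41.5%) were higher in KO in all 3 populations and 153 (1.70%) lower. With median-of-ratios scaling the counts were 1141 (12.7%) and 1082 (12%). Under that scaling KO exceeded WT by at least 25% in each population at 22 peaks (0.245%), WT exceeded KO by as much at 24 (0.267%), and neither reached 2-fold at any peak. Every KO library lay above every WT library at 463 peaks (5.15%) and below at 433 (4.82%). Across the 8986 peaks the log2 differences of the populations were nearly unrelated, with Pearson's r of -0.03 for Tfh21 and Tfh214, 0.12 for Tfh21 and Tfh4 and -0.12 for Tfh214 and Tfh4. For the same pairs in that order, r was 0.18, 0.15 and 0.01 over the gene sums described below. It was 0.24, 0.22 and 0.05 over the windows of 250 kb. These are descriptions across peaks, genes or windows, which share libraries and depth.

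Among peaks higher in all 3 populations after median-of-ratios scaling, the smallest p-values after the 2 called peaks belonged to Zfp708, Cyb5a, Entpd4, Rora, Emp1 and St7l. None passed the test under that scaling (limma adjusted p from 0.491 to 0.811). The start site of Zfp708, a zinc finger gene, stood at 31.2, 31.5 and 31.3 CPM in WT and 58.98, 62.6 and 39.6 CPM in KO, so the WT libraries were nearly level and KO Tfh4 was the lowest of the KO libraries. An intron peak of Cyb5a, which encodes the electron carrier cytochrome b5, stood at 16.0, 18.9 and 16.7 CPM in WT and 34.2, 31.3 and 30.7 CPM in KO. Entpd4, a nucleotide-hydrolysing enzyme of internal membranes, lies beside Slc25a37, and its start site held 22, 24 and 18 reads in WT and 32, 27 and 38 in KO. Its other 9 peaks did not move together, at ratios of 0.899, 1.44 and 0.893. An intron peak of Rora, a nuclear receptor of T cell and innate lymphoid programs, stood at 11.6, 14.2 and 15.3 CPM in WT and 31.4, 25.0 and 25.0 CPM in KO. The start site of Emp1, a membrane protein gene, ran from 10.2 to 15.7 CPM in WT and from 25.0 to 30.4 CPM in KO. At each of these 5 the KO libraries lay above all WT libraries in CPM, as they did at 13.4% of all tested peaks. The share was 5.15% with median-of-ratios scaling. The 5 were picked among peaks higher in KO in each population, so this only describes them.

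On the lower side no peak passed the test under either scaling. Grb2, the adaptor that links receptors to Ras, had the smallest p: its start site stood at 39.2, 33.8 and 39.3 CPM in WT and 31.4, 26.3 and 24.2 CPM in KO, a log2 difference of -0.63 ± 0.17 (limma adjusted p = 0.491). Cdk4, a kinase of cell cycle entry that lies 579 kb from Stat6, stood at 41.9, 47.97 and 37.1 CPM in WT and 30.4, 33.8 and 33.9 CPM in KO. The Fos start site, an AP-1 factor gene induced by receptor signals, stood at 55.2, 43.3 and 37.1 CPM in WT and 40.9, 40.1 and 29.1 CPM in KO, and its groups overlapped. In CPM the groups of Grb2 and Cdk4 did not overlap, but they too were picked on these values. Every KO library lay below every WT library at 0.323% of all tested peaks with library-total scaling and 4.82% with median-of-ratios scaling. Peaks at Sbk1, F730043M19Rik, Gm17801 and Hnrnpl, a splicing regulator, and an intergenic peak on chromosome 4 completed the 8 named, with log2 differences of -0.81 to -0.41. With library-total scaling the F730043M19Rik peak was no longer lower in Tfh4, at 1.03 times WT, nor the chromosome 4 peak in Tfh21, at 1.02.

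Summed over all peaks of a gene, 10825 genes were tested. With median-of-ratios scaling 1 gene rose in KO (0.00924% of those tested) and 4 fell (0.0370%). With library-total scaling 1 rose (0.00924%) and 5 fell (0.0462%), and the 5 genes of the first scaling were all among these 6. With median-of-ratios scaling limma called 0 genes without the variance trend (866 at an unadjusted p under 0.05), 1, which was lower in KO, without the population block, and 75 without the Tfh4 libraries. The gene that rose was Slc25a37, whose sums were 90, 97 and 109 reads in WT and 137, 131 and 147 in KO. Its log2 difference was 0.72 ± 0.12 (limma adjusted p = 0.0361, and 0.0963 without the Tfh214 libraries).

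Of the 4 genes that fell, Gm21190, Speer4cos and Speer8-ps1 lie within one cluster on chromosome 5, as does LOC105242399, called with library-total scaling only. Speer genes are expressed in the testis and stand in tandem as near-identical copies. Reads of such copies can be placed on one another's loci, and the sources used here do not say how the authors treated them. Values of single genes of this cluster are therefore uncertain. Gm21190 held 199, 180 and 227 reads in WT and 75, 57 and 117 in KO over 48 peaks, a log2 difference of -1.10 ± 0.12 (limma adjusted p = 0.000696). Speer4cos held 57, 41 and 58 reads in WT and 15, 6 and 28 in KO, and Speer8-ps1 63, 53 and 65 against 21, 8 and 40 (limma adjusted p = 0.0361, and 0.0538 without the Tfh214 libraries). KO Tfh4 was the highest of the KO libraries at each of these 3 genes. The genes were called on these same sums, so the values only describe them. All 13 peaks of Speer4cos and all 14 of Speer8-ps1 were lower in KO when populations were pooled. These peaks make up the called sums, so the counts only describe them.

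Ptk7, a receptor-like protein of Wnt and planar polarity signalling without kinase activity, was the fourth gene that fell. Its 12 peaks on chromosome 17 (46701617 to 46766363) were weak, with 2.68 reads on average, and each was lower in KO when populations were pooled. The peaks make up the called sum, so this count only describes them. Their sums were 39, 48 and 55 reads in WT and 18, 12 and 21 in KO, at ratios of 0.493 (exact binomial 95% interval 0.265 to 0.883), 0.398 (0.193 to 0.761) and 0.423 (0.243 to 0.711). The log2 difference was -1.22 ± 0.21 (limma adjusted p = 0.0361, and 0.0673 without the Tfh214 libraries).

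The direction of a gene followed the strength of its peaks. Genes with fewer than 3 reads per peak (1680 genes) had a median log2 difference of -0.24 with median-of-ratios scaling, and -0.34, -0.25 and -0.13 by population. Genes with 20 or more reads per peak (1325) had 0.11, and 0.11, 0.12 and 0.12 by population. Ptk7 and the Speer genes stood below the median of genes of like strength. The next genes on the lower side, the actin nucleator gene Fmn2, Gm4736 and Trabd2b, were spread over 28 to 39 weak peaks and did not pass the test (log2 -0.71 to -0.66, limma adjusted p = 0.0713 each). Of the 100 genes with the smallest p, 90 were lower in KO, and 88 of these held under 5 reads per peak, as did 36.2% of all genes tested. Among the next genes on the higher side, Zfp708, Cyb5a, Apobec1, Loxl2, Mid1 and Enoph1 did not pass either (log2 0.38 to 0.76). Genes higher in all 3 populations numbered 1641 (15.2%) and genes lower 1628 (15.0%) with median-of-ratios scaling. Library-total scaling gave 2687 (24.8%) and 1044 (9.64%). Where the difference reached 25% in each population after median-of-ratios scaling, 41 genes (0.379%) were higher in KO and 169 (1.56%) lower.

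**Figure D3:**
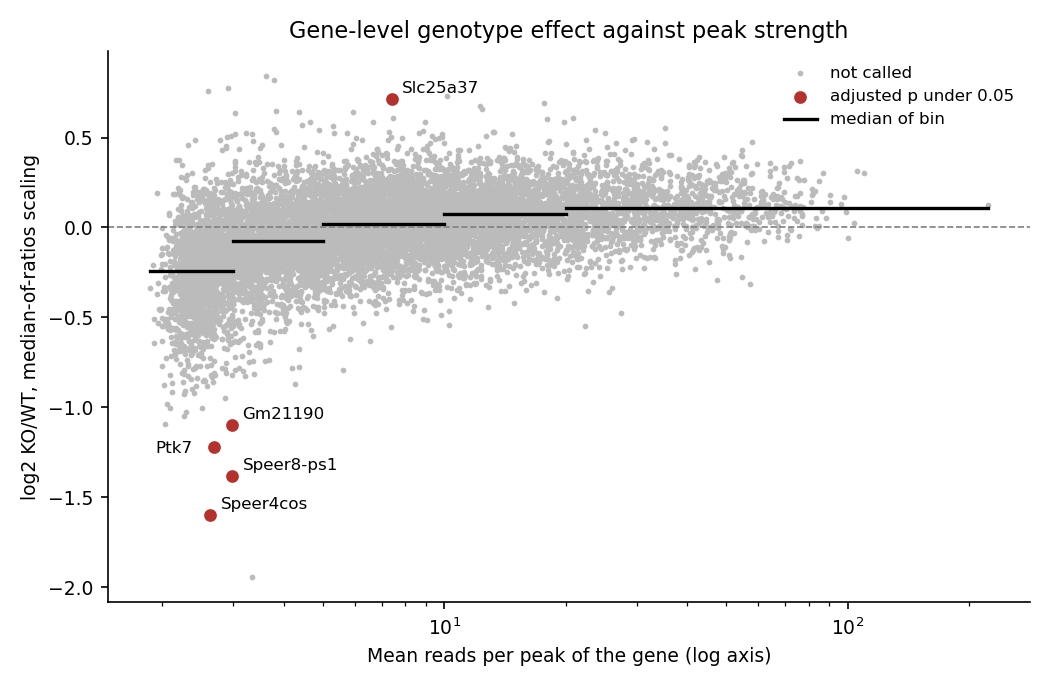
Log2 difference KO against WT of 10825 genes with median-of-ratios scaling against the mean reads per peak of the gene (log axis), with red points for the 5 genes called and black lines for the median of each strength class. The medians run from -0.24 in the weakest class to 0.11 in the strongest, and the 4 genes that fell lie among the weak ones.

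To see whether neighbouring peaks moved together whatever gene they were assigned to, peaks were summed in windows of 250 kb, a step added after the data were seen. Of 6303 windows, 2 rose in KO (0.0317%) and 3 fell (0.0476%), and the same 5 were called with both scalings and by edgeR. DESeq2 called 1, and limma without the variance trend called 0 (671 at an unadjusted p under 0.05). The 2 lowest were neighbours and cover the Speer cluster, from 14750001 to 15250000 on chromosome 5. Their log2 differences were -0.91 ± 0.12 and -1.16 ± 0.12 (limma adjusted p = 4.06e-05 and 5.77e-08). Together their 117 peaks, none with a mean of 20 reads, held 471, 408 and 539 reads in WT and 161, 124 and 308 in KO. The ratios were 0.365 (exact binomial 95% interval 0.303 to 0.438), 0.484 (0.393 to 0.593) and 0.634 (0.549 to 0.730), and 101 of the 117 peaks were lower in KO when populations were pooled. The windows were called on the sums of these peaks, so the count only describes them.

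The flanks were closer to WT than the segment in each population. The 750 kb below the segment stood at 0.613 (0.464 to 0.806), 1.15 (0.848 to 1.55) and 1.34 (1.06 to 1.69) in Tfh21, Tfh214 and Tfh4, and the 750 kb above it at 0.902 (0.708 to 1.15), 0.749 (0.575 to 0.971) and 0.868 (0.709 to 1.06). The lower flank thus had no common direction, and the upper flank stood below 1 in all 3 populations, with an interval below 1 in Tfh214 alone. Weak peaks stood below 1 over the whole genome as well. Peaks outside start sites with a mean of 2 to 3 reads stood at 0.837, 0.919 and 0.919, and those of the upper flank held 2.81 reads on average. Whether the upper flank differs from that level was not tested. With populations pooled, 26 of 50 peaks in the lower flank and 35 of 57 in the upper flank were lower in KO. The share of all weak peaks that were lower in KO was not counted. Between 14900001 and 15200000 the interval lay below 1 in each 100-kb bin for Tfh21 and Tfh214 and in 2 of 3 bins for Tfh4. The bin that spans the upper end of the segment (15200001 to 15300000) stood at 0.346, 0.885 and 0.471.

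**Figure D4:**
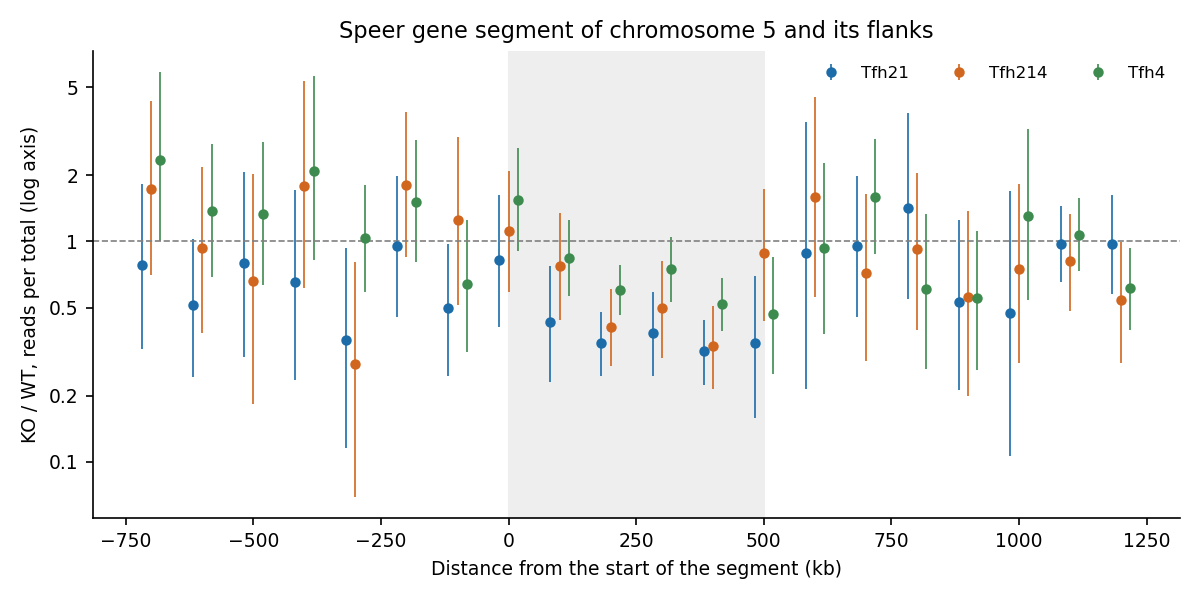
KO to WT ratio of reads per library total (log axis) in bins of 100 kb against the distance from the start of the 2 called windows on chromosome 5 (grey), with exact binomial 95% intervals and 1 colour per population. Ratios lie below 1 through the middle of the grey segment in all 3 populations and scatter on both sides of 1 outside it.

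The 3 other windows were smaller in size of effect. The window with Slc25a37 and Entpd4 on chromosome 14 (69750001 to 70000000) rose by a log2 of 0.51 ± 0.09 (limma adjusted p = 0.00763). Without the peaks of Slc25a37 its ratios were 1.23 (0.968 to 1.56), 1.42 (1.14 to 1.77) and 1.09 (0.895 to 1.33). The window with the called peak near Lpin1 on chromosome 12 (16500001 to 16750000) rose by 0.50 ± 0.10 (adjusted p = 0.0197 by limma), and without that peak its ratios were 1.18 (0.935 to 1.49), 1.297 (0.987 to 1.70) and 1.42 (1.15 to 1.77). A window on chromosome 1 (37250001 to 37500000) with Inpp4a, a phosphatase of membrane inositol lipids, Cnga3, Coa5 and Mgat4a fell by 0.46 on the log2 scale (SE 0.10, limma adjusted p = 0.0314). There the 41 weak peaks stood at 0.513 (0.383 to 0.682), 0.541 (0.392 to 0.736) and 0.596 (0.453 to 0.779) of WT. The start site of Coa5, an assembly factor of cytochrome oxidase, stood at 1.07, 1.03 and 1.05. The call of the chromosome 14 window was lost without the Tfh21 or the Tfh214 libraries (limma adjusted p = 0.222 and 0.0706). The chromosome 12 call was lost without those of Tfh4 (0.0774) and the chromosome 1 call without those of Tfh21 (0.512). Both chromosome 5 windows kept theirs whichever population was left out.

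So few genes were called over all (5 of 10825 with median-of-ratios scaling) that a list of some 30 genes with none called is near the background, and the lists below are given by their values. Of 34 listed receptor, Janus kinase, STAT and SOCS genes, 28 were tested and 0 passed under either scaling. Their median log2 difference was 0.10 with median-of-ratios scaling, where all genes tested had 0.00. Genes with 10 to 20 reads per peak had 0.07 and those with 20 or more 0.11, and the lists were not matched for strength. Il4ra, the IL-4 receptor chain, held 57, 56 and 73 reads in WT and 56, 47 and 64 in KO (log2 0.07 ± 0.14). Socs1, the feedback inhibitor of Janus kinases, stood at -0.08 ± 0.13 and Cish at 0.15 ± 0.23. The most higher and most lower members were Irs2, an insulin and IL-4 receptor substrate (0.30), and Socs3 (-0.19). Of 26 genes listed as IL-4 and STAT6 responses, 17 were tested with a median of 0.03 and 0 called. Gata3, the main Th2 regulator, stood at -0.02 ± 0.13. It had 90, 121 and 109 reads in WT and 119, 67 and 89 in KO, so its CPM was higher in KO in Tfh21 and lower in the other populations.

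The cytokine genes were too thinly covered to enter the test. Il4 held 2, 12 and 10 reads in WT and 2, 7 and 6 in KO, and Il13 6, 9 and 11 against 9, 3 and 4. The receptor genes Ccr4 (10, 10 and 20 reads in WT, 16, 6 and 17 in KO) and Fcer2a (13, 10 and 26 in WT, 10, 10 and 23 in KO) were below the minimum as well. Differences at these genes were not tested. The Th2 list had 6 tested members with a median of 0.05, between Maf, a factor of IL-4 and IL-21 expression (0.21), and Rad50, the DNA repair gene that houses a control region of the cytokine cluster (-0.48). By population the medians were 0.25, -0.39 and 0.11.

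Of 29 listed genes of the Tfh program, 28 were tested with a median log2 difference of 0.06 and 0 called. Bcl6 held 62, 68 and 83 reads in WT and 62, 47 and 59 in KO (log2 -0.11 ± 0.14), and Cxcr5, the receptor that guides cells into follicles, 72, 78 and 68 against 79, 63 and 56 (0.08 ± 0.14). Il21 stood at -0.22 ± 0.21, and the list ran from P2rx7 (-0.36), a nucleotide-gated channel, to Sh2d1a (0.37), which encodes the adaptor SAP. Pan-T cell genes had a median of 0.08 (18 tested), T cell receptor signalling genes 0.04 (29) and activation-induced genes 0.08 (23), between Fos (-0.39) and the early activation gene Cd69 (0.37).

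Of the 21 lists, the only member called was Slc25a37, in the list of mitochondrial and iron handling genes. The 17 tested genes of that list had a median log2 difference of -0.02, so its call was not shared by the list, and Iscu, an iron-sulphur scaffold gene, stood at -0.33. Respiratory chain genes (24 tested) had 0.10, widely used promoters (22) 0.09, naive and memory genes (12) 0.11 and coinhibitory and TNF receptor genes (11) 0.10. Havcr2, a coinhibitory receptor gene, stood highest of that last list at 0.77 ± 0.32 (limma adjusted p = 0.48), on 7, 11 and 37 reads in WT and 20, 17 and 30 in KO. Ribosomal protein (30), cell cycle (30) and chromatin regulator genes (30) had 0.04, 0.05 and 0.04, Th1 genes (7) 0.04 and Treg genes (8) 0.04. The 5 tested B cell genes had a median of -0.22, led by Pax5 (-0.52 ± 0.13, limma adjusted p = 0.184), whose 27 peaks summed to 86, 128 and 127 reads in WT and 74, 59 and 66 in KO. Of these 5 genes, 4 held under 5 reads per peak, where the median of all genes lay below 0. Myeloid genes (3 tested) had 0.00, and erythroid and platelet genes (4) -0.12.

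**Figure D5:**
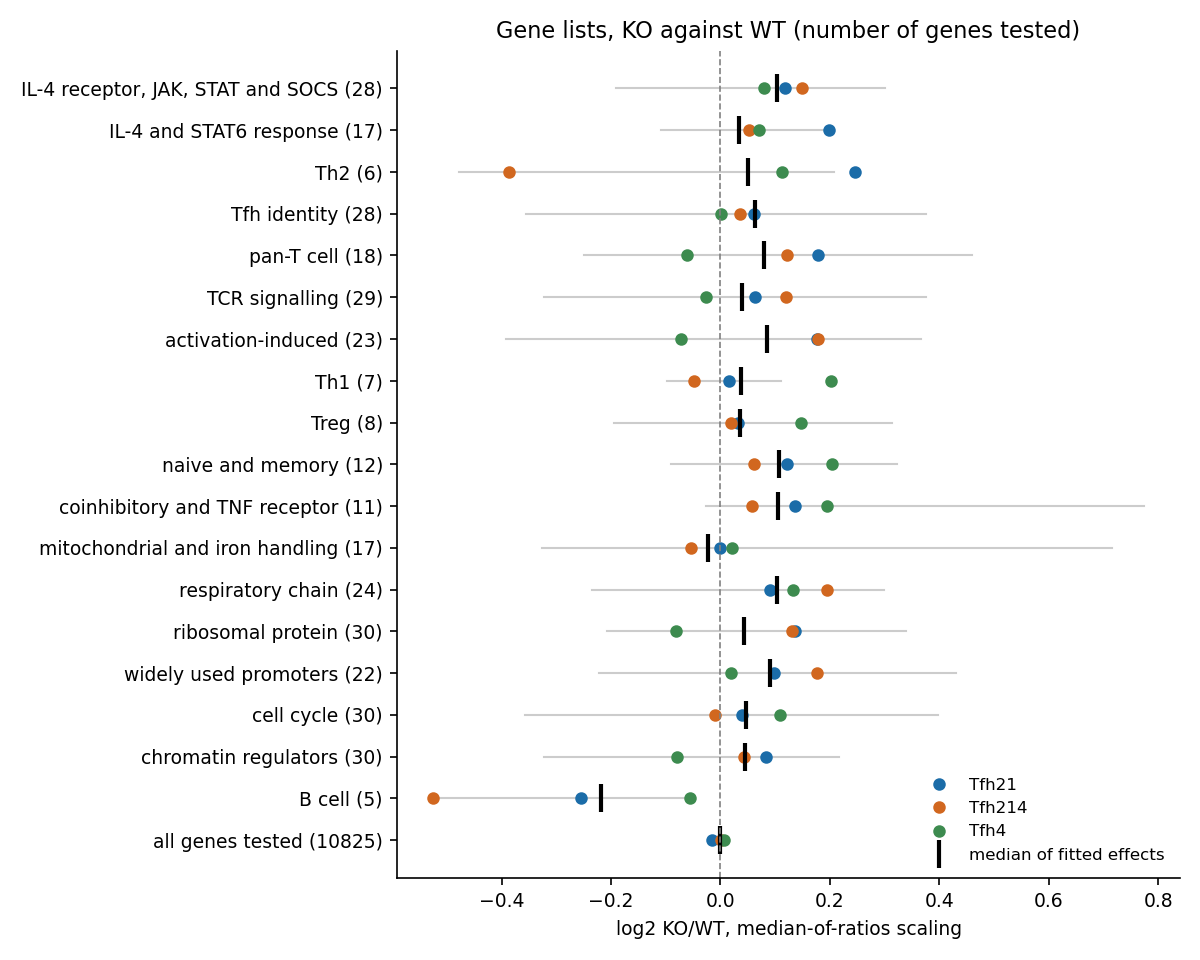
Median log2 difference KO against WT with median-of-ratios scaling for the lists with at least 5 genes tested, with 1 coloured point per population, a black mark for the median of the fitted effects and a grey line from the lowest to the highest gene. Most medians lie between 0 and 0.11, and the B cell list at -0.22 is the lowest.

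Promoters were also compared by the letters searched above. Of 6755 genes with a tested start-site peak, 5327 matched a RefSeq promoter by symbol. The STAT6-type spacing lay in 6.01% of these and in 6.95% of all RefSeq windows, and TTCNNNGAA in 7.85% and 8.30%. The median log2 difference with median-of-ratios scaling was 0.00 for the 320 promoters with the STAT6-type spacing, -0.01 for the 418 with TTCNNNGAA and -0.01 for the 4628 with neither. For the first set the medians by population were -0.03, 0.05 and -0.02. With library-total scaling 4 of the 320 were called, 5 of the 418 and 38 of the 4628. The share called among all 5327 was 0.845%.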

How the data were processed

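The deposited table gives, for each peak and library, CPM computed by the authors, with peak positions and annotation on mm9. The submitters' processing notes list Bowtie 1.3.0, MACS2 2.0 and HOMER but say nothing of what each did. Pooling of libraries for peak calling, duplicate removal and the shift of cut sites are not given in the sources used here. Each library's values were whole multiples of 1 step (tolerance 0.02 reads, at least 99.9989% of values), so whole reads were recovered from the deposited CPM.

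Peaks, gene sums (all peaks with a symbol) and windows of 250 kb were tested with limma 3.58.1 (R 4.3.3) on log2(CPM + 1) with population as a block, genotype as the effect, a variance trend and 2 residual degrees of freedom. A fold change on this scale understates that of low values. Peaks and genes needed a mean of at least 20 reads and windows 50. Median-of-ratios scaling divided each library by its median ratio to the geometric mean over the features tested. The population block follows the labels: within-population deviations of WT and KO libraries correlated at 0.02, -0.05 and -0.07. The fits were also run on simulated counts with counting error alone, which hold no added spread between libraries, and no outcome of that run is used here. edgeR 4.0.16 and DESeq2 1.42.0 ran on recovered reads as alternatives. Intervals are exact binomial at 95% and cover counting error only.

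Named peaks were those called under both scalings, the smallest p-values by section with library-total scaling (8 at start sites, 3 in each other section), and the 8 higher and 8 lower in all 3 populations after median-of-ratios scaling, with genes by the same rule and a set of STAT6 and Tfh genes always named. The members and lists were chosen with earlier results of these data known. Mcl1, Entpd4's other peaks and Lpin1 were chosen after their values were seen. No sample was left out, and 1 gene that the rule names is not reported here.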

Additional observations from a re-analysis of the deposited data

How the results depend on the processing

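Counts of calls depended on the settings, and so did the balance of directions: genes at an unadjusted p under 0.05 numbered 770 higher and 432 lower with library-total scaling and 304 and 696 with median-of-ratios scaling. The median log2 difference of peaks with library-total scaling was 0.19 at the minimum of 20 reads and -0.11 with none. With library-total scaling the 77 peaks became 40 at a minimum mean of 10 reads, 193 at 50 and 17 with no minimum. After median-of-ratios scaling the 2 peaks became 1, 1 and 7 under these minimums, 0 with factors from peaks outside start sites, 1 with factors from start-site peaks, and 0 after cyclic loess, an alternative chosen after seeing the data. edgeR called 1 peak and DESeq2 0 (2 by limma). Without the variance trend limma called 0 peaks, genes and windows under either scaling, with 1405 and 394 peaks, 961 and 866 genes and 672 and 671 windows at an unadjusted p under 0.05 (library total first). Genes numbered 72 (library total) and 1 (median of ratios) from start-site peaks only, 3 and 2 from other peaks only, and 2 and 27 at a minimum mean of 50 reads, against 6 and 5. Windows, all added after seeing the data, numbered 1 and 2 at 1 Mb, 3 and 2 at a minimum of 100 reads, 8 with library-total scaling from peaks under 20 reads only, and 1 by DESeq2, against 5. Peaks of the same direction in all 3 populations numbered 1297 higher and 8 lower at a minimum mean of 50 reads with library-total scaling, and 339 and 207 with median-of-ratios scaling.

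Leaving out 1 population at a time, library-total calls ranged from 2 (without Tfh21) to 256 peaks (without Tfh214), from 1 to 69 genes (69 without Tfh4) and from 2 to 29 windows (29 without Tfh214). Median-of-ratios calls ranged from 0 to 1 peaks, from 5 to 75 genes (75 without Tfh4) and from 4 to 28 windows (28 without Tfh214). The cause was not tested. Without the replicate block, that is without the pairing by population, 2 peaks were called with library-total scaling, 1 peak and 1 gene with median-of-ratios scaling. The other counts without it stayed within 1.5 times.

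Of the named peaks and genes, none that was called changed direction when 1 population was left out or the scaling changed. Among uncalled genes, library-total scaling turned Bank1 (0.018), Tigit (0.045) and Gata3 (0.057). With 1 population left out at a time, the log2 difference crossed 0 at 15 of these genes: Il21 from -0.36 to 0.0028, Epas1 from -0.26 to 0.028, Bcl6 from -0.19 to 0.021, Il12rb2 from -0.27 to 0.060 and Bach2 from -0.22 to 0.073. It ran at Il18r1 from -0.014 to 0.19, Socs1 from -0.19 to 0.015, Cxcr5 from -0.021 to 0.20, Il4ra from -0.055 to 0.15 and Itgam from -0.39 to 0.047. At the other 5 it ran at Bank1 from -0.12 to 0.045, Tigit from -0.16 to 0.050, Cebpb from -0.087 to 0.19, Gata3 from -0.22 to 0.11 and Ccr8 from -0.24 to 0.31. Depth limits single weak peaks: the median peak held 14 reads over all 6 libraries.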

Other observations

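Reads on whole chromosomes outside the autosomes gave no common ratio over the populations. The 22 mitochondrial peaks stood at KO to WT ratios of 0.772 (exact binomial 95% interval 0.647 to 0.921), 1.67 (1.39 to 2.002) and 0.880 (0.740 to 1.05) in Tfh21, Tfh214 and Tfh4. The 2041 peaks of the X chromosome stood at 1.23, 1.01 and 1.26, and the 70 peaks of the Y chromosome at 1.06, 1.26 and 1.03. Whether these values differ between populations was not tested, since each rests on 1 library per genotype.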
